A study of Rattus norvegicus with 8 samples.

Results

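The let-7 family and its relative miR-98 were followed in rat pancreatic islets from the suckling period to adulthood. The members were chosen by name, as the non-control features of the array that carry 1 of 10 rat miRNA names. These were rno-let-7a, rno-let-7b, rno-let-7c, rno-let-7d, rno-let-7e, rno-let-7f, rno-let-7i, rno-miR-98 and the minor arms rno-let-7b* and rno-let-7d*, written below without the species prefix. They make up 10 of the 677 miRNAs on the array, with 24 of its 1644 probes and 200 of its 13540 non-control features. All 10 were among the 238 miRNAs tested. The asterisk follows the array's own naming and stands for the less used strand of a precursor.

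The study compared islets of adult rats with islets of rats at postnatal day 10 (P10), with 4 1-colour Agilent miRNA arrays per age. Adult islets came from male Sprague Dawley rats aged 3 months. P10 islets came from Sprague Dawley rats aged 10 days, whose sex is not given. The labels call the rats of both ages controls and name no genotype or treatment. Islets are hormone-producing clusters of the pancreas that hold several cell types, with insulin-secreting beta cells as the main one. Each array is labelled a biological replicate, without a statement of how many animals gave its islets, so that p-values measure the spread between these samples.

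let-7 miRNAs are known for low levels in early embryos and stem cells and for high levels in differentiated tissues. They repress transcripts that match their seed, bases 2 to 8 of the mature RNA, and known targets include the growth genes Hmga2, Igf2bp1 and Lin28b. The LIN28 proteins in turn block the processing of let-7 precursors. The LIN28 and let-7 pair is also known for its bearing on insulin signalling and glucose handling.

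The mature sequences of the members are printed because 8 of them differ in only a few bases, so that their probes may take up each other's RNA. All 10 names matched a RefSeq mature sequence (assembly GRCr8), each 22 bases long and written 5′ to 3′ with the seed in capitals.
let-7a: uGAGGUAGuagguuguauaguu
let-7b: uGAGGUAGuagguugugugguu
let-7c: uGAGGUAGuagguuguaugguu
let-7d: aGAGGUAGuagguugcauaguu
let-7e: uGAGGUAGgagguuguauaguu
let-7f: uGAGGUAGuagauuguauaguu
let-7i: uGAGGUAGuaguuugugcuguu
miR-98: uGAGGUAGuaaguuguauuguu
let-7b*: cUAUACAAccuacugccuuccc
let-7d*: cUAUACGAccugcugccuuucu

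The first 8 of these are guide strands and share the seed GAGGUAG. The minor arms have seeds of their own, UAUACAA in let-7b* and UAUACGA in let-7d*, so the 10 members hold 3 seeds. Relative to let-7a, with positions counted from 1 at the 5′ end, let-7c differs by A19G, let-7e by U9G and let-7f by G12A. let-7b differs by A17G and A19G, let-7d by U1A and U16C, and miR-98 by G11A and A19U. let-7i is the most distant from let-7a, with G12U, A17G, U18C and A19U. Each of these changes lies outside the seed.

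The genes are spread over the genome of GRCr8. let-7e lies on chromosome 1 within Spaca6, beside Mir99b and Mir125a. let-7b and a copy of let-7c are neighbours on chromosome 7, which also holds let-7i. let-7a has a copy on chromosome 8 beside Mir100 and a copy on chromosome 17 beside let-7f and let-7d. The other let-7c copy lies on chromosome 11 beside Mir99a. miR-98 lies on chromosome X within Huwe1, beside the other copy of let-7f.

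The arrays differed in brightness. Over the 278 probes that every array measured above background, the 75th percentile of the signal was 1354, 1401, 1677 and 1284 on adult replicates 1 to 4, against 388, 440, 989 and 1690 on P10 replicates 1 to 4. P10 replicates 1 and 2 were therefore the dimmest arrays, and P10 replicate 4 was the brightest of all. Adult and P10 arrays occupied separate columns of a single slide, so that the column and the age cannot be told apart. Islet markers were measured on every array. The summed level of miR-375, miR-7a, miR-184 and miR-204 was 41.3 to 47.3 times each array's 75th percentile on adult arrays, against 11.3 to 24.0 on P10 arrays, and miR-184 was not above background on any adult array. The log2 differences were 0.47 for miR-375, 1.85 for miR-7a and 1.91 for miR-204, all called higher in adult. The summed acinar markers miR-216a and miR-217 stood at 0.195 to 0.397 on adult arrays, against 0.783 and 0.632 on P10 replicates 1 and 2 and 0.0587 and 0.0440 on P10 replicates 3 and 4. The summed gut epithelium markers were at 0.280 to 0.508 on adult arrays and at 1.11 to 13.5 on P10 arrays, with miR-215 not above background on any adult array. Of 5 mesenchyme markers, miR-199a-5p (-1.75), miR-199a-3p (-1.62) and miR-214 (-1.64) fell and miR-143 (0.93) rose, with a summed level of 5.10 to 7.11 on adult arrays and 4.27 to 7.38 on P10 arrays. The erythroid markers miR-451 (1.47) and miR-144 (0.91) rose, with a summed level of 0.250 to 0.652 on adult arrays and 0.147 to 0.253 on P10 arrays. None of 4 leukocyte and 2 endothelium markers was called. The summed leukocyte level was 1.24 to 1.58 on adult arrays, against 1.06, 0.72, 1.43 and 3.64 on P10 replicates 1 to 4. The summed endothelium level was 2.92 to 3.32 on adult arrays and 2.34 to 4.71 on P10 arrays. The part of these cell types in the results below was not tested. Fewer cells of a type and less RNA per cell cannot be told apart in such samples.

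miR-98 and let-7e rose about equally and were the members with the largest differences. let-7f also rose, by less, but turned negative under 5 other scalings. Among those, cyclic loess on bright probes and normexp then quantile called it lower in adult. The other 7 members did not pass the test. Values below are scaled log2 signals, in which 0 is an array's own 75th percentile, so each difference is relative to that percentile. Differences were tested with limma across all 238 miRNAs, at a Benjamini-Hochberg adjusted p of 0.05. Of these 238 miRNAs, 47.5% passed, 27.3% higher in adult and 20.2% lower. That split of 65 higher and 48 lower was 90 and 34 with the percentile over all probes, 58 and 17 without scaling, 53 and 9 with spike-in scaling, 33 and 47 with normexp then percentile, and 12 and 22 when cyclic loess used all probes. The 3 of 10 members that rose are close to that background share, and 0 of 10 fell. The median difference was 0.19 over the 10 members and 0.29 over the 8 guide strands, beside -0.01 over all tested miRNAs. Brightness of different probes does not order the miRNAs by abundance.

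miR-98, which shares the let-7 seed under another name, had scaled signals of -0.29, -0.25, -0.10 and -0.30 on adult replicates 1 to 4, against -1.61, -1.20, -1.14 and -1.07 on P10 replicates 1 to 4. Every adult array lay above every P10 array. The log2 difference was 1.02 ± 0.14 (SE, n = 4 per age), or 2.03-fold, with a 95% interval of 1.62 to 2.54 and a limma adjusted p of 0.00062. As unscaled signal, miR-98 measured 1105, 1179, 1564 and 1043 on adult arrays and 127, 191, 450 and 806 on P10 arrays. All adult values were above all P10 values on this scale too. The order of the P10 arrays was that of their brightness, and the part of brightness in the difference was not tested.

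let-7e, the member encoded with miR-99b and miR-125a, had scaled signals of 1.94, 1.91, 1.93 and 1.77 on adult replicates 1 to 4, against 0.36, 0.83, 1.19 and 1.12 on P10 replicates 1 to 4. The ages did not overlap, and the P10 arrays spread more widely than the adult arrays. It was higher in adult by 1.01 ± 0.19 on the log2 scale (SE, n = 4 per age), or 2.02-fold, with a 95% interval of 1.49 to 2.73 and a limma adjusted p of 0.00292. P10 replicate 1, the dimmest array, held the lowest value. Without it the difference was 0.84 (limma adjusted p = 0.00144), the lowest value on leaving out 1 array in turn, which gave 0.84 to 1.12 and a call each time. With P10 replicates 3 and 4 alone, the difference was 0.73 for let-7e and 0.87 for miR-98, and both were called.

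let-7f, which has copies beside let-7a and beside miR-98, stood at 3.76, 3.72, 3.74 and 3.59 on adult replicates 1 to 4, against 3.35, 3.43, 3.36 and 3.13 on P10 replicates 1 to 4. The ages did not overlap, with a gap that was narrow beside that of let-7e. The difference of 0.38 ± 0.11 (SE, n = 4 per age) amounted to 1.30-fold, with a 95% interval of 1.10 to 1.55 and a limma adjusted p of 0.0193. Without adult replicate 1, 2 or 3 the difference was 0.37, 0.38 or 0.37 and was not called (limma adjusted p of 0.0613, 0.0525 or 0.0641, in a range of 0.00513 to 0.527 over 28 alternatives). With all arrays and slide row as a block it was not called either (limma adjusted p = 0.0812). let-7f was called lower in adult with cyclic loess on bright probes (-0.36, limma adjusted p = 0.0222). The same held with normexp then quantile (-0.25, limma adjusted p = 0.0224).

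Ages did not overlap for 3 of the 10 members, all higher in adult, beside 45.8% of all tested miRNAs in either direction and 25.6% with adult higher. Those 3 were let-7e, let-7f and miR-98.

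**Figure D1:**
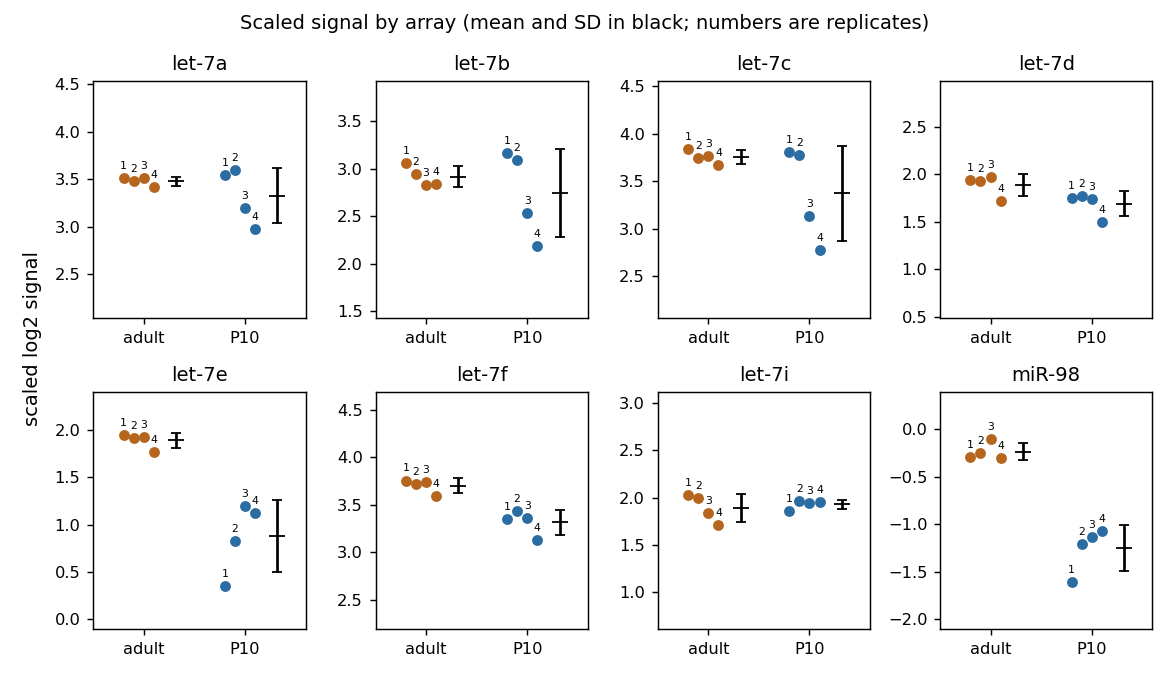
Scaled log2 signal of the 8 guide-strand members on 4 adult arrays (left in each panel) and 4 P10 arrays (right), with replicate numbers beside the points and the mean and SD in black. Each panel spans the same number of log2 units around its own centre; adult points lie above all P10 points for let-7e, let-7f and miR-98, and P10 replicates 1 and 2 lie highest among P10 for let-7a, let-7b and let-7c.

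let-7a, the sequence against which the others were set, had scaled signals of 3.52, 3.49, 3.51 and 3.41 on adult replicates 1 to 4, against 3.54, 3.59, 3.20 and 2.98 on P10 replicates 1 to 4. The adult values lay within the P10 range, with P10 replicates 1 and 2 above every adult array and replicates 3 and 4 below. The difference of 0.15 had a 95% interval of -0.20 to 0.51 and a limma adjusted p of 0.459 (n = 4 per age).

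let-7b stood at 3.06, 2.95, 2.82 and 2.84 on adult replicates 1 to 4, against 3.16, 3.09, 2.53 and 2.18 on P10 replicates 1 to 4. let-7c, its neighbour on chromosome 7, stood at 3.84, 3.75, 3.76 and 3.67 on adult arrays, against 3.80, 3.77, 3.13 and 2.77 on P10 arrays. Both followed the pattern of let-7a, high on P10 replicates 1 and 2 and low on replicates 3 and 4. Their differences were 0.17 for let-7b (95% interval -0.35 to 0.70, limma adjusted p = 0.564, n = 4 per age) and 0.38 for let-7c (-0.16 to 0.93, adjusted p = 0.223). The let-7c difference is as large as that of let-7f, but the P10 SD was 0.50 for let-7c and 0.13 for let-7f. The P10 arrays with the higher let-7a, let-7b and let-7c were the dimmest ones, and acinar miR-216a and miR-217 were highest there. With P10 replicates 3 and 4 alone, let-7a (0.40), let-7b (0.56) and let-7c (0.80) were called higher in adult, with limma adjusted p of 0.0125, 0.0117 and 0.00197. The part of brightness and of acinar RNA in these values was not tested.

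let-7d, which is encoded with let-7a and let-7f on chromosome 17, stood at 1.94, 1.93, 1.97 and 1.72 on adult replicates 1 to 4, against 1.75, 1.77, 1.74 and 1.50 on P10 replicates 1 to 4. The ages overlapped through adult replicate 4 alone, which lay below P10 replicates 1, 2 and 3. The difference was 0.20 (95% interval -0.06 to 0.45, limma adjusted p = 0.189, n = 4 per age). let-7i, the most divergent sequence, stood at 2.02, 2.00, 1.84 and 1.71 on adult arrays, against 1.86, 1.96, 1.94 and 1.95 on P10 arrays. It was the flattest member under this scaling, with a difference of -0.04 (95% interval -0.28 to 0.21, limma adjusted p = 0.809). Other scalings moved it in both directions, as given below.

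Both minor arms were close to background. let-7b* measured 24.0, 40.7, 28.7 and 29.1 unscaled signal units on adult replicates 1 to 4, against 26.1, 28.4, 26.8 and 36.0 on P10 replicates 1 to 4. On the scaled log2 scale 2 adult arrays and 1 P10 array were at the common floor of -5.51, and the difference of -0.75 did not pass (limma adjusted p = 0.150). let-7d* measured 33.2, 54.2, 34.3 and 30.1 on adult arrays, against 9.50, 19.6, 52.4 and 51.2 on P10 arrays, and was above background on 4 adult arrays and 2 P10 arrays. Its difference of -0.46 did not pass either (limma adjusted p = 0.228). The floor sets part of both differences.

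Each guide-strand member had a second, dimmer probe that was above background on all 8 arrays. In a fit over the 435 probes above background on at least 4 arrays, of which 46.2% were called, the second probes of miR-98 (0.95, limma adjusted p = 0.00165) and let-7e (0.82, adjusted p = 0.0154) were higher in adult as well. The second probe of let-7f stood at 0.27 and did not pass (limma adjusted p = 0.0593), although its ages did not overlap. Probe pairs differed most for let-7d, at 0.20 on the brighter probe and -0.09 on the dimmer. For let-7i the brighter probe stood at -0.04 and the dimmer at -0.27, where all adult arrays lay below all P10 arrays (limma adjusted p = 0.0589). Replicate features of the brighter probes varied by 1.33% to 12.3% within an array (CV, median 6.81%), and 0 of them were saturated.

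**Figure D2:**
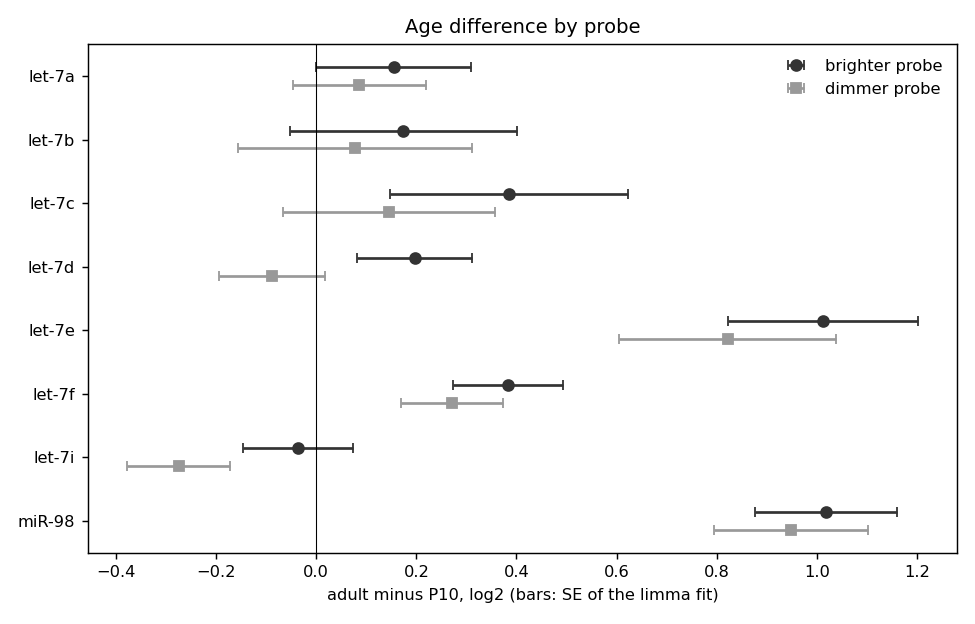
Adult minus P10 log2 difference for the brighter probe (dark circles) and the dimmer probe (grey squares) of each guide-strand member, with bars for the SE of the limma fit over all probes. Both probes of let-7e (1.01 and 0.82) and miR-98 (1.02 and 0.95) lie to the right of all others, and the pair of let-7d lies on both sides of 0.

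The sign of the age difference of let-7a, let-7b, let-7c, let-7d and let-7f depended on how the arrays were scaled. With quantile normalization the differences were -0.51, -0.45, -0.26, -0.35 and -0.23, and in the authors' deposited value table they were -0.57, -0.51, -0.38, -0.29 and -0.24. In that table limma called let-7a, let-7b, let-7d and let-7i lower in adult. Without any scaling the same 5 members stood at 1.11, 1.13, 1.34, 1.16 and 1.34, on a scale where the median of all tested miRNAs was itself 0.94. let-7i stood at 0.92 without scaling and was not called. It was called lower with quantile normalization (-0.65, limma adjusted p = 0.00325) and with normexp then quantile (-0.64, 0.00126). Cyclic loess on bright probes (-0.52, limma adjusted p = 0.0082) and the authors' table (-0.49, 0.00608) also gave that call. No direction is given for let-7i or the 5 members above across scalings, the call of let-7f included. let-7e and miR-98 stayed higher in adult under all 28 alternatives, at 0.39 to 2.04 for let-7e and 0.43 to 2.05 for miR-98. Other filters, floors, eBayes settings and blocks left these differences at 1.01 for let-7e and 1.02 for miR-98. Fits without 1 array kept the same scaling, so the 28 are not separate checks. miR-98 was called in 27 of 28 and lost its call with cyclic loess over all probes (0.43, limma adjusted p = 0.199). let-7e was called in 24 of 28, and lost its call there (0.39, limma adjusted p = 0.244), with quantile normalization (0.53, 0.111), with normexp then quantile (0.53, 0.0892) and in the authors' deposited value table (0.71, 0.0533).

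**Figure D3:**
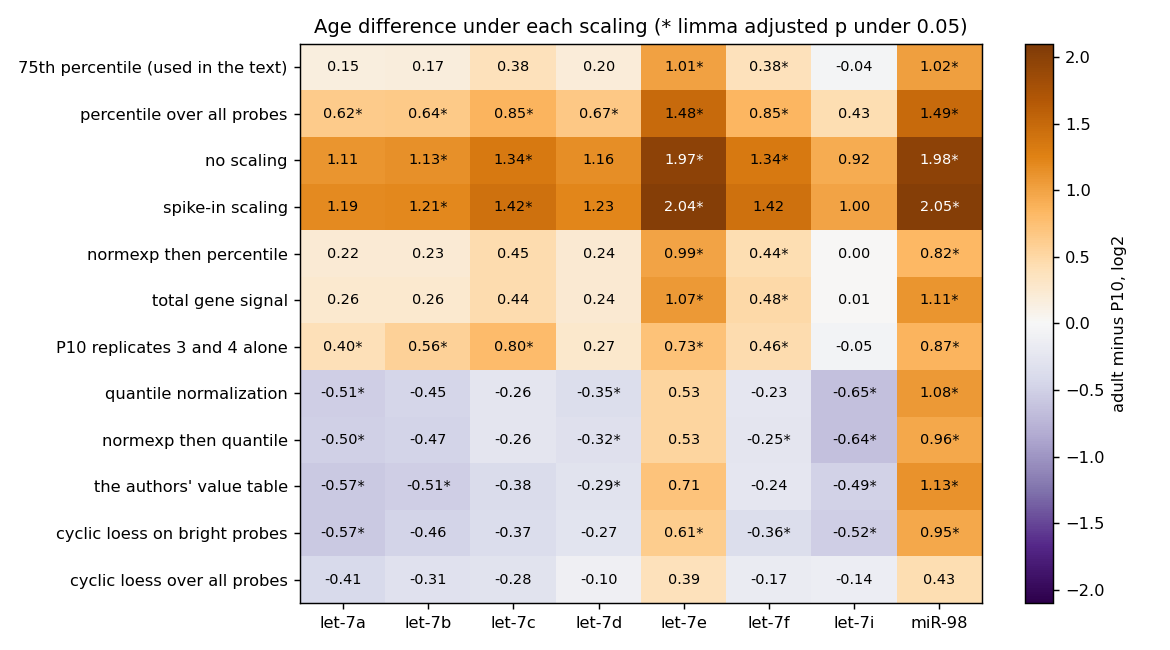
Adult minus P10 log2 difference of each guide-strand member (columns) under the scaling used in the text and 11 alternatives (rows), with an asterisk where the limma adjusted p was under 0.05. The let-7e and miR-98 columns are above 0 in every row, while let-7a, let-7b, let-7c, let-7d and let-7f change sign between the upper and lower rows. The let-7i column is near or above 0 in the upper rows and below 0 in the lower rows.

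A ratio of members on the same array does not need a scaling between arrays. Each miRNA was therefore expressed relative to let-7a on its own array and the ages were compared again. Such a ratio removes a factor that all probes of an array share, but not one that differs between bright and dim probes. let-7e and miR-98 rose relative to let-7a, and the ratio of let-7b*, near background, fell, with calls that single arrays decided as given below. The unscaled let-7b* signal itself did not fall, with means of 30.6 on adult and 29.3 on P10 arrays. That of let-7a was 16001 and 8053. Among the other 237 miRNAs, 40.5% were called in this comparison, 15.2% higher and 25.3% lower, so the members' 2 higher and 1 lower of 9 are not far from the background. The split of all miRNAs, 36 higher and 60 lower, depended on the processing. It was 116 and 26 with quantile normalization, 132 and 26 with cyclic loess on bright probes, 145 and 25 with normexp then quantile, 130 and 25 in the authors' deposited value table, 25 and 113 with normexp then percentile, and 13 and 7 when cyclic loess used all probes. The median of the 9 members was 0.04, beside -0.17 for all tested miRNAs.

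The signal of let-7e was 0.336, 0.335, 0.333 and 0.319 of the let-7a signal on adult replicates 1 to 4, against 0.110, 0.147, 0.249 and 0.276 on P10 replicates 1 to 4. The adult ratios were nearly constant, and every P10 ratio lay below them. The log2 difference was 0.86 ± 0.29 (SE, n = 4 per age, limma adjusted p = 0.0448). It lost its call on leaving out P10 replicate 1 or 2 or any 1 adult array, with differences of 0.61 to 0.87 and limma adjusted p of 0.0702 to 0.110. Over 29 alternatives that adjusted p ranged from 0.000514 to 0.228.

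The miR-98 signal was 0.0714, 0.0751, 0.0817 and 0.0762 of the let-7a signal on adult replicates 1 to 4, against 0.0282, 0.0359, 0.0497 and 0.0605 on P10 replicates 1 to 4. Here too the ages did not overlap, and the log2 difference was 0.86 ± 0.24 (SE, n = 4 per age, limma adjusted p = 0.0207). It lost its call without P10 replicate 2 or without adult replicate 2, 3 or 4, with limma adjusted p of 0.0519 to 0.0622. P10 replicates 3 and 4 lay nearer to the adult ratio than replicates 1 and 2 for both miRNAs. On the P10 arrays both ratios rose in the order of array brightness, and the part of brightness in them was not tested. With these 2 arrays alone as P10, the differences were 0.34 for let-7e and 0.47 for miR-98 and both were called. Set against let-7c in place of let-7a, they were 0.63 for each and neither was called (limma adjusted p of 0.228 for let-7e and 0.168 for miR-98).

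For the remaining guide strands the ratio to let-7a moved less than for let-7e and miR-98. let-7f was 1.18, 1.18, 1.17 and 1.13 of let-7a on adult replicates 1 to 4, against 0.875, 0.894, 1.12 and 1.11 on P10 replicates 1 to 4. All adult ratios were above all P10 ratios, but the difference of 0.23 did not pass (limma adjusted p = 0.230). let-7c (0.23), let-7d (0.04), let-7b (0.02) and let-7i (-0.19) overlapped between ages and did not pass, with limma adjusted p of 0.244, 0.833, 0.916 and 0.433. The ratio of let-7i was 0.306 to 0.357 on adult arrays and 0.311 to 0.492 on P10 arrays, highest on P10 replicates 3 and 4. let-7b* was lower relative to let-7a by a log2 difference of -0.91 (limma adjusted p = 0.0294), with 3 of its values at the floor, but turned to 0.68 and was called higher with cyclic loess on bright probes (adjusted p = 0.00894, 0.00216 to 0.933 over 29 alternatives). Its call was also lost without P10 replicate 1 or 2 or adult replicate 1, 3 or 4 (-0.91 to -0.73, adjusted p of 0.0577 to 0.0832), and with slide row as a block (adjusted p = 0.0552). let-7d* stood at -0.61 and did not pass. Ages did not overlap for 4 of the 9 members, 3 of them higher in adult, beside 43.5% of the 237 miRNAs in either direction and 16.0% with adult higher. Cross-hybridisation between these closely related probes was not tested.

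**Figure D4:**
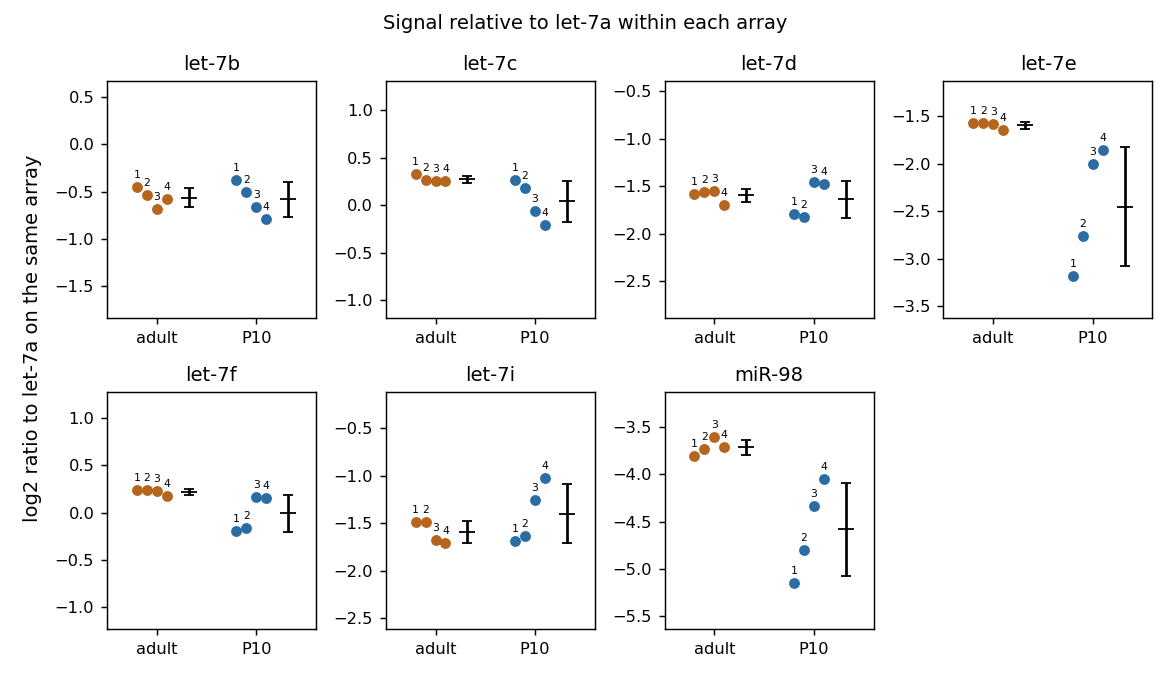
Log2 ratio of each of 7 guide-strand members to let-7a on the same array, with 4 adult arrays on the left and 4 P10 arrays on the right of each panel and the mean and SD in black. Adult ratios of let-7e and miR-98 form a tight group above all P10 ratios, and P10 replicates 1 and 2 are the lowest.

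The family held a large share of the signal at both ages. As a share of the total gene signal, a sum per miRNA that the scanner software writes, added up over all miRNAs of an array, the 8 guide strands made up 21.2, 20.9, 20.4 and 19.2% on adult replicates 1 to 4, against 24.3, 25.5, 22.0 and 20.2% on P10 replicates 1 to 4. The ages overlapped, and adult replicate 4 and P10 replicate 4 were the lowest of their groups. Within that share the make-up differed. let-7e made up 1.29 to 1.45% of the total on adult arrays and 0.617 to 1.26% on P10 arrays, and miR-98 made up 0.359 to 0.410% and 0.184 to 0.317%, both without overlap. let-7a (3.83 to 4.14% on adult arrays, 4.31 to 5.57% on P10 arrays), let-7d (1.18 to 1.37%, 1.54 to 1.71%) and let-7i (1.28 to 1.55%, 1.84 to 2.24%) took smaller shares on all adult arrays than on all P10 arrays. These shares were not tested, and each depends on the other miRNAs of the array.

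**Figure D5:**
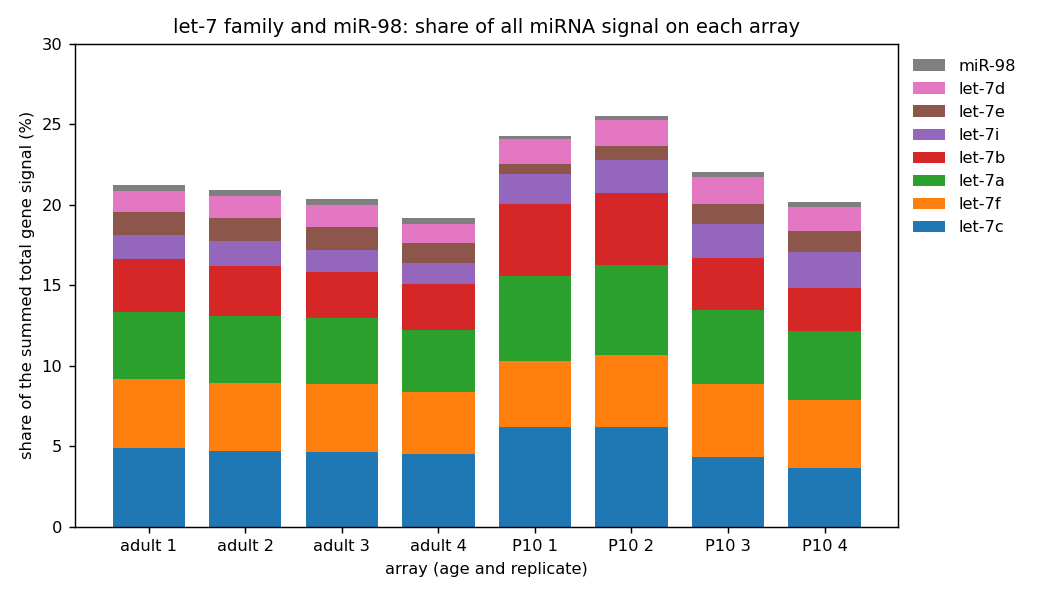
Share of the summed total gene signal (%) taken by each of the 8 guide-strand members, stacked, on 4 adult arrays (left) and 4 P10 arrays (right). The stacks reach 19.2 to 21.2% on adult arrays and 20.2 to 25.5% on P10 arrays, with the smallest let-7e and miR-98 layers on P10 replicates 1 and 2.

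The members varied over the 8 arrays in different ways. Scaled log2 signals of let-7a and let-7c had a Pearson correlation of 0.983, let-7a and let-7b of 0.966, and let-7b and let-7c of 0.955. let-7e and miR-98, which lie on different chromosomes, had 0.979. let-7d and let-7f, which share a locus on chromosome 17, had 0.921. let-7a, which has a copy at that locus, had 0.674 with let-7f. let-7a had low values with let-7e (0.083) and miR-98 (0.211). let-7d and let-7f lay between these sets: let-7f had 0.830 with miR-98, 0.777 with let-7e and 0.755 with let-7c, and let-7d had 0.793 with let-7c and 0.761 with let-7a. let-7i had -0.08 with let-7a and 0.003 with let-7e. These values describe 8 arrays of 2 ages that share a slide and a scaling.

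Outside the family, the tested miRNAs with the most similar profile over the 8 arrays were named for 3 members. For let-7e they were miR-183 (Pearson correlation 0.995), miR-129 (0.993) and miR-204 (0.989), and for miR-98 they were miR-129-1* (0.996), miR-204 (0.994) and miR-24 (0.990). All of these were higher in adult, by log2 differences of 1.04 to 2.46. They were picked for their likeness to members that differ between ages on the same arrays, so this direction follows from the choice. miR-129 was at the floor on P10 replicate 1. For let-7a the most similar were miR-212 (0.987), miR-216a (0.936) and miR-30c (0.914). None of these was called, which is no separate result either, as let-7a was not called. The acinar marker miR-216a stood at -1.74, -2.40, -2.77 and -2.43 on adult replicates 1 to 4, against -0.60, -0.91, -4.77 and -5.51 on P10 replicates 1 to 4, and so shared with let-7a its split of the P10 arrays.

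miRNAs that mammals encode beside let-7 genes were examined as a list of 10 products of the miR-99, miR-100 and miR-125 families. Of these 7 were above background on enough arrays to be tested, 0 rose and 1 fell, with a median difference of -0.24, beside 27.3% higher and 20.2% lower among all tested miRNAs. miR-99b and miR-125a-5p, the neighbours of let-7e, were not called. Neither was miR-125a-3p, from the other arm of miR-125a, at -0.51 (95% interval -2.09 to 1.06, limma adjusted p = 0.577). miR-99b stood at -1.45, -1.56, -1.47 and -1.28 on adult replicates 1 to 4, against -1.77, -1.46, -1.39 and -1.36 on P10 replicates 1 to 4, a difference of 0.05 (95% interval -0.24 to 0.35, limma adjusted p = 0.758). That interval lies below the 0.58 to 1.45 of let-7e. miR-125a-5p stood at 0.30 (95% interval -0.12 to 0.71, limma adjusted p = 0.215), and its interval overlaps that of let-7e. It stayed above 0 under all 28 alternatives (0.0459 to 1.33), many of which kept the same scaling. Without P10 replicate 3 it was called higher (0.46, limma adjusted p = 0.0229). The difference between let-7e and its neighbours was not tested directly. miR-100, the neighbour of a let-7a copy, fell by 0.58 on the log2 scale (limma adjusted p = 0.0472). That call was lost without P10 replicate 1 or 2 (-0.45 and -0.50) and without any 1 adult array (-0.66 to -0.52), and the difference turned to 0.38 without scaling. miR-99a, the neighbour of a let-7c copy, stood at 1.07, 0.83, 0.91 and 1.03 on adult arrays, against 2.08, 1.75, 0.43 and 0.39 on P10 arrays. It overlapped between ages, did not pass (-0.21, limma adjusted p = 0.710), and split the P10 arrays as let-7a, let-7b and let-7c did.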

How the data were processed

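Per the file headers, Feature Extraction 10.7.3.1 wrote the deposited scanner files, whose intensity used here is a processed signal with background subtracted. The authors' deposited value table holds log2 values, and its making is not stated in the sources used here. From the processed signal, outlier features were left out (2.34% to 3.65% per array), and the rest were averaged per probe. Arrays were scaled to their 75th percentile, taken over 278 probes above background on all 8 arrays. Values were raised to a common floor (-5.51, log2) and log2 was taken. Each miRNA was represented by its brightest probe, and those above background on at least 4 arrays were tested, 238 in all, with limma 3.58.1 in R 4.3.3 (lmFit, eBayes, Benjamini-Hochberg, no block). The limma step was tested on simulated data, drawn with the same SD at both ages and no effect shared by an array. That simulation does not cover unequal spread between ages or differences in array brightness. The number of arrays limits the precision. For normexp (offset 50), median signals were used because the files hold no mean signal column. Members, lists, tests and alternatives were chosen with earlier results of these data known. Named miRNAs were all members, the encoded neighbours, 3 most similar profiles for each of let-7a, let-7e and miR-98, and cell type markers. Replicate numbers were not taken as pairing the ages. The array's design uses another build than GRCr8, so no coordinates are given.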

Additional observations from a re-analysis of the deposited data

Results flagged for a closer look

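Of 38 groups of 4 arrays examined, 5 held an array far from the other 3, and such gaps also occur by chance. On the scaled log2 scale let-7d was low on adult replicate 4 (1.72) and on P10 replicate 4 (1.50). let-7b* was high on adult replicate 2 (-5.10), where the other adult arrays were at or near the floor. Relative to let-7a on the same array, let-7f was low on adult replicate 4 (0.18) and let-7c was high on adult replicate 1 (0.32).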

How the results depend on the processing

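Of all tested miRNAs 113 were called; 34 were called with cyclic loess over all probes, 75 without scaling and 62 with spike-in scaling, and 84 to 138 on leaving out 1 array. Of the members 3 were called. With the percentile over all probes 7 were called, all higher (90 higher and 34 lower of all 238). P10 replicates 3 and 4 alone gave 6, all higher (73 and 52). The 5 called without scaling were all higher (58 and 17 of all), the 5 with cyclic loess on bright probes were 2 higher and 3 lower (71 and 44), and the 5 each with normexp then quantile (56 and 46) and in the authors' value table (59 and 43) were 1 higher and 4 lower. Cyclic loess over all probes gave 0, and there were 2 to 4 on leaving out 1 array. Relative to let-7a, 96 miRNAs were called; 20 were called with cyclic loess over all probes, 158 with cyclic loess on bright probes, 170 with normexp then quantile, 155 in the authors' value table and 149 with array weights, and 68 to 124 on leaving out 1 array. Relative to let-7a, 3 members were called; 6 were called with P10 replicates 3 and 4 alone, 1 each with the mean of probes, with slide row as a block and relative to let-7c, 0 with cyclic loess over all probes, and 0 to 3 on leaving out 1 array.

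Signs turned as follows. With quantile normalization let-7a was at -0.51, let-7b -0.45, let-7c -0.26, let-7d -0.35 and let-7f -0.23. With normexp then quantile they were at -0.50, -0.47, -0.26, -0.32 and -0.25, with cyclic loess over all probes at -0.41, -0.31, -0.28, -0.10 and -0.17, with cyclic loess on bright probes at -0.57, -0.46, -0.37, -0.27 and -0.36, and in the authors' value table at -0.57, -0.51, -0.38, -0.29 and -0.24. let-7b* was at 0.0502 without scaling, 0.12 with spike-in scaling, 2.22 with cyclic loess over all probes and 0.10 on bright probes, and let-7d* at 0.0639, 0.13, 2.58 and 0.40 there. let-7i was at 0.43 with the percentile over all probes, 0.92 without scaling, 1.00 with spike-in scaling, 0.002 with normexp then percentile, 0.0059 with total gene signal and -0.0801 to 0.0249 on leaving out 1 array (above 0 without adult replicate 4). On leaving out 1 array let-7b was at -0.0123 to 0.31 (below 0 without P10 replicate 4). miR-99a was at 0.26 with the percentile over all probes, 0.75 without scaling, 0.83 with spike-in scaling, 0.55 with P10 replicates 3 and 4 alone and -0.46 to 0.10 on leaving out 1 array (above 0 without P10 replicate 1). miR-99b was at -0.0096 with cyclic loess on bright probes, -0.0896 with normexp then percentile, -0.0649 with P10 replicates 3 and 4 alone and -0.0358 to 0.10 on leaving out 1 array, the lowest without P10 replicate 1. miR-100 was at 0.38 without scaling and 0.45 with spike-in scaling. Relative to let-7a, let-7b was at -0.0581 with array weights, -0.0504 to 0.0885 on leaving out 1 array (below 0 without P10 replicate 3, P10 replicate 4 or adult replicate 1), and -0.21 relative to let-7c. let-7b* was at 2.63 with cyclic loess over all probes, 0.68 on bright probes, 0.32 with normexp then quantile and 0.12 in the authors' value table. let-7d was at -0.0659 with the mean of probes, -0.0167 with total gene signal, -0.13 with P10 replicates 3 and 4 alone, -0.0196 to 0.10 on leaving out 1 array (below 0 without P10 replicate 1 or 2), and -0.19 relative to let-7c. let-7d* was at 0.32 with quantile normalization, 2.99 with cyclic loess over all probes, 0.97 on bright probes, 0.49 with normexp then quantile and 0.45 in the authors' value table. let-7f was at -0.0013 relative to let-7c, and let-7i at 0.27 with cyclic loess over all probes, 0.0527 on bright probes and 0.0788 in the authors' value table. The causes were not tested.

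With the replicate block 95 miRNAs were called, 51 higher and 44 lower in adult, and 2 members; let-7f (limma adjusted p = 0.0555) and let-7e relative to let-7a (0.0676) lost their calls. Deviations from the age means correlated between same-numbered arrays at 0.18, -0.09, 0.48 and -0.23, and 2 of 4 adult arrays matched their own number best. With 4 arrays per age these values cannot decide whether same-numbered arrays were paired. The median difference of all tested miRNAs was 0.45 with the percentile over all probes, 1.01 with spike-in scaling, -0.28 with normexp then percentile and 0.24 with cyclic loess on bright probes. Signal near background limits let-7b* and let-7d*.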

Other observations

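The array also carries probes for let-7 products outside the 10 members, which were picked by name after the values had been seen. Of 6 further minor arms, let-7a-1* was above background on 2 arrays, with signals of 18.8 to 27.4 on adult arrays and 11.4 to 26.2 on P10 arrays. let-7c-1*, let-7e*, let-7f-1*, let-7f-2* and let-7i* were above background on 0 arrays. miR-3596a, miR-3596b, miR-3596c and miR-3596d are annotated on the opposite strand and are complementary to let-7a, let-7d, let-7e and let-7f over 22, 20, 21 and 20 bases. They were above background on 0 arrays, with a highest signal of 10.8, on adult replicate 2.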
